A study of Rattus norvegicus with 9 samples.

Results

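Of the 32883 genes listed for these rat livers, 22250 of them protein-coding, 39 protein-coding genes carried a symbol of the main phase II conjugation families. The rule took symbol and biotype only: 5 UDP-glucuronosyltransferases (Ugt1 and Ugt2 symbols), 12 sulfotransferases (Sult1 to Sult6) and 22 cytosolic and mitochondrial glutathione transferases (Gsta, Gstk, Gstm, Gsto, Gstp and Gstt). Of these, 32 had enough counts to be tested: 5 glucuronosyltransferases, 10 sulfotransferases and 17 glutathione transferases. The other 7, Sult1d1, Sult6b1, Gstm3, Gstm6, Gstm6l, Gsto2 and Gstt4, did not exceed 1.49 CPM, counts scaled to a common library total, in any liver.

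Phase II enzymes attach a water-soluble group to drugs, hormones, bilirubin and bile acids so that they can leave the body in bile or urine. Glucuronosyltransferases of the endoplasmic reticulum use UDP-glucuronic acid, sulfotransferases of the cytosol use the activated sulfate donor PAPS, and glutathione transferases couple electrophiles to glutathione. The hepatocyte is the main site of all 3 reactions in liver, and the products leave it through transporters of the canalicular and sinusoidal membranes.

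Transcripts of 3 livers per group were sequenced in bulk, from male Sprague-Dawley rats obtained at 8 to 11 weeks of age. The normal rats (Normal) had neither bile duct ligation (BDL), nor lipopolysaccharide (LPS), nor extracorporeal circulation. In the 2 ACLF groups, a rat model of acute-on-chronic liver failure, BDL for 21 days was followed by LPS at 0.25 mg/kg, and 2 h of circulation began 1 h after LPS. The circuit of the Empty group held neither cells nor a leukocyte column, while that of the UTOpiA group held a granulocyte and monocyte/macrophage adsorption (GMA) column and a column of alginate-encapsulated, gene-edited human iPSC-derived hepatocyte-like cells (iHLCs). ACLF livers were taken 24 h after LPS from surviving rats picked at random, so the livers describe survivors to that time, and the effects of BDL, LPS and the circuit cannot be told apart in the comparison with Normal. UTOpiA combines the GMA column and the cells, whose effects cannot be told apart here either.

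Between 14241172 and 17321677 reads were counted per liver. CPM values and fold changes below are scaled by the trimmed mean of M-values (TMM), and TPM, which also account for gene length, are given for levels compared between genes and for levels summed over genes. The choice of scale matters in this series: over the 14089 genes tested, the median log2 ratio of Empty to Normal was 0.04 after TMM scaling and 0.55 in TPM, so TPM values place ACLF livers higher for the typical gene. Called genes had an adjusted p under 0.05 (edgeR, Benjamini-Hochberg over the 14089 genes) and a fold change above 2. The livers are labelled as biological replicates, and p-values measure the spread between these 9 livers.

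The libraries were liver by their markers, and the levels of cell type markers differed between groups. All 9 hepatocyte markers were detected in every group, and their summed level was 168700 to 185100 TPM in Normal, 43090 to 80890 TPM in Empty and 50190 to 77700 TPM in UTOpiA livers, with 5 of 9 called lower and 0 called higher in Empty against Normal, where 11.1% of all genes were called lower and 20.7% higher. All 8 cholangiocyte markers were called higher, with summed levels of 15.8 to 25.6 TPM in Normal, 379 to 810 TPM in Empty and 153 to 534 TPM in UTOpiA livers. Of the fibroblast and stellate cell markers 6 of 7 tested, of the macrophage markers 7 of 8 and of the neutrophil markers all 5 tested (of 8 listed) were called higher in Empty. In bulk tissue, fewer hepatocytes and less of an RNA per hepatocyte cannot be told apart, and the part of cell composition in the results below was not tested.

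Lower transcript levels were the more frequent outcome in ACLF. In Empty against Normal livers 17 of the 32 tested enzymes (53.1%) were called lower and 3 (9.38%) higher, while over all genes tested 11.1% were called lower and 20.7% higher. In UTOpiA against Normal 12 (37.5%) were called lower and 3 (9.38%) higher, against 6.81% and 18.2% of all genes. The median log2 fold change in Empty against Normal was -3.54 for the glucuronosyltransferases, -1.42 for the sulfotransferases and -1.35 for the glutathione transferases, against 0.04 for all genes. The 3 enzymes called higher, Sult5a1, Gstp1 and Gstm3l, were the same in both comparisons, which share the Normal livers. Of the 17 called lower in Empty, 12 were called in every alternative that tested them, as were 8 of the 12 called lower in UTOpiA, the 3 called higher in Empty and 2 of the 3 called higher in UTOpiA. Sult4a1 passed the filter on low counts through the Normal livers, and Sult5a1 and Gstm3l through the ACLF livers.

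**Figure D1:**
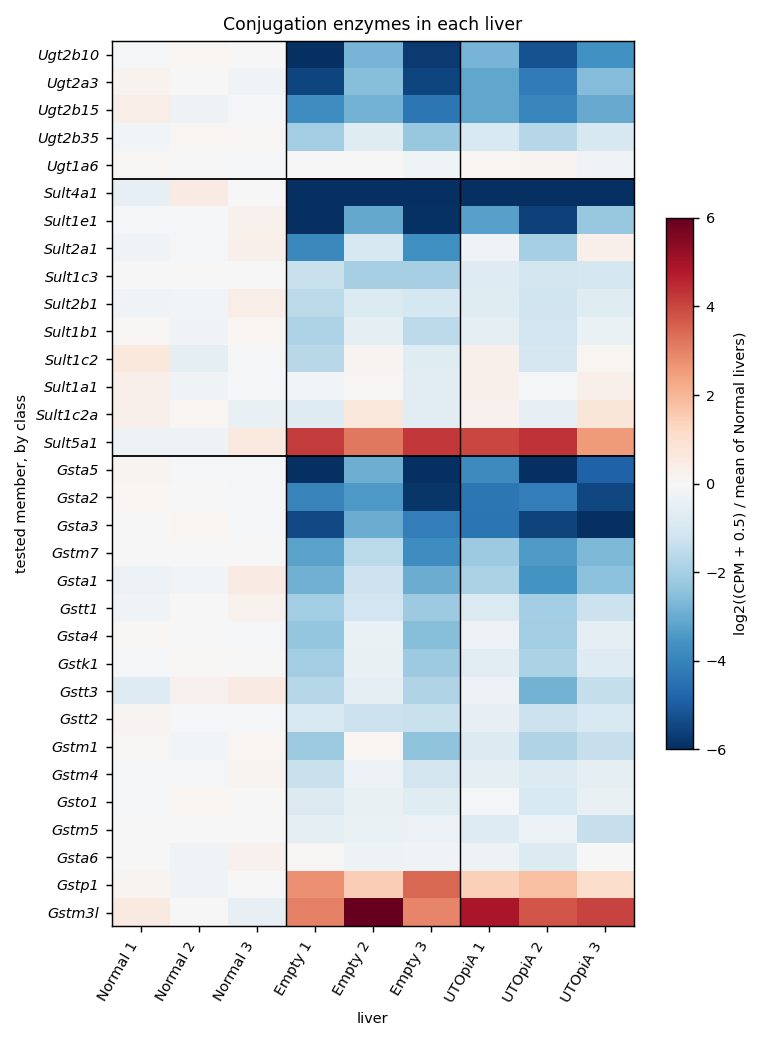
Heat map of the 32 tested enzymes (rows, by class: glucuronosyltransferases, sulfotransferases, glutathione transferases) in the 9 livers (columns), coloured by the log2 ratio of CPM + 0.5 to the mean of the Normal livers. Most rows are blue in the ACLF livers, 3 rows are red, and Empty 2 is paler than Empty 1 and 3 in most rows.

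Of the 5 glucuronosyltransferases, the 4 Ugt2 genes were called lower in both ACLF groups and Ugt1a6 was not called. Ugt2b15, which conjugates steroids and drugs, had the highest level of the class in Normal livers at 901 ± 223.5 TPM (SD, n = 3). Its level was 5159, 3164 and 3771 CPM in the Normal livers, 294, 549 and 194.5 CPM in the Empty livers and 454, 265 and 484 CPM in the UTOpiA livers. All 6 ACLF livers lay below all 3 Normal livers, and the log2 fold change was -3.54 ± 0.45 (SE; adjusted p = 0.000353) in Empty and -3.33 ± 0.45 (adjusted p = 0.000669) in UTOpiA.

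Ugt2b10 had the largest fold decrease of the class in Empty. Its CPM was 678.5, 797 and 702.5 in Normal, 10.9, 104 and 13.1 in Empty and 103, 18.9 and 57.8 in UTOpiA livers. Its log2 fold change was -4.09 ± 0.98 (adjusted p = 0.00879) in Empty and -3.60 ± 0.96 (adjusted p = 0.0177) in UTOpiA. Empty 2 and UTOpiA 1 held about as much Ugt2b10 transcript as each other, while Empty 1 and 3 were lower than any UTOpiA liver. Leaving out Empty 2 gave -5.92 (edgeR adjusted p = 0.000443) in Empty, and leaving out UTOpiA 1 gave -4.25 (edgeR adjusted p = 0.0266) in UTOpiA. Leaving out the highest liver of a group deepens a decrease by construction. Such values, here and below, show the weight of that liver and add no support. Over the alternatives the weakest values were -3.635 in Empty and -3.17 in UTOpiA, with adjusted p up to 0.0289 and 0.0631. The UTOpiA call was kept in 15 of 18 alternatives.

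Ugt2a3, which glucuronidates bile acids, also had Empty 2 as the highest of its Empty livers and UTOpiA 2 as the lowest of its UTOpiA livers. It stood at 189, 163 and 141 CPM in Normal, 3.11, 26.9 and 3.12 CPM in Empty and 18.3, 8.43 and 26.4 CPM in UTOpiA livers, with log2 fold changes of -3.90 ± 0.87 (adjusted p = 0.00626) and -3.22 ± 0.84 (adjusted p = 0.0163). Ugt2b35 fell less. Its CPM was 661.5, 808.5 and 785 in Normal, 175, 451 and 155 in Empty and 403, 226 and 385 in UTOpiA livers, with log2 fold changes of -1.53 ± 0.41 (adjusted p = 0.0132) and -1.15 ± 0.41 (adjusted p = 0.0491). The UTOpiA call for Ugt2b35 was not stable: it was kept in 8 of 19 alternatives, whose adjusted p ran from 0.00526 to 0.142. With Empty 2 left out the values in Empty were -5.72 (edgeR adjusted p = 0.000114) for Ugt2a3 and -2.19 (edgeR adjusted p = 0.000452) for Ugt2b35. The weakest values in Empty over the alternatives were -3.45 and -1.18, with adjusted p up to 0.02485 and 0.0463. Without UTOpiA 2 the number of glucuronosyltransferases called lower in UTOpiA was 1, Ugt2b15, and without UTOpiA 3 it was 2, Ugt2b15 and Ugt2a3.

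The Ugt1a6 row was not called in either group. Its CPM was 582, 539.9 and 529 in Normal, 559, 544 and 464.5 in Empty and 589, 618 and 479.7 in UTOpiA livers, and the 3 groups overlapped. The log2 fold change was -0.07 ± 0.20 in Empty (adjusted p = 0.776) and 0.03 ± 0.20 in UTOpiA (adjusted p = 0.911), with 95% intervals of -0.51 to 0.36 and -0.41 to 0.47. In TPM the direction in Empty turned to 0.44, below the 0.55 by which the median gene moved on that scale. This row spans 141666 bases on chromosome 9, and no row is named Ugt1a1: the Ugt1a enzymes, which include the bilirubin-conjugating form, share their last exons, so the row cannot be read as a single isoform. On chromosome 14 the rows of Ugt2b15 and Ugt2b35 lie wholly inside that of Ugt2a3 on the same strand, so how reads were divided between these 3 is uncertain. RefSeq gives the Entrez identifiers of the Ugt1a6, Ugt2b10 and Ugt2b15 rows the symbols Ugt1a9, Ugt2b1 and Ugt2b37.

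No member's share of the summed TPM of the class overlapped between Normal and ACLF livers. The share of Ugt1a6 was 4.57% ± 0.21 in Normal, 24.7% ± 9.11 in Empty and 20% ± 7.38 in UTOpiA livers (SD, n = 3). The shares of Ugt2b10 and Ugt2a3 were lower in ACLF. Ugt2b15 supplied 48.3% ± 7.97 of the summed TPM of glucuronosyltransferases in Normal livers, 20.7% ± 2.22 in Empty and 19.5% ± 2.02 in UTOpiA livers, while Ugt2b35 supplied 30.9% ± 5.65, 50.9% ± 6.07 and 55.2% ± 3.66 (SD, n = 3). The summed level was 1849 ± 151 TPM in Normal, 529 ± 263 TPM in Empty and 562 ± 106 TPM in UTOpiA livers, 0.286 and 0.304 times the Normal mean. On summed CPM the ratios were 0.19 and 0.222.

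**Figure D2:**
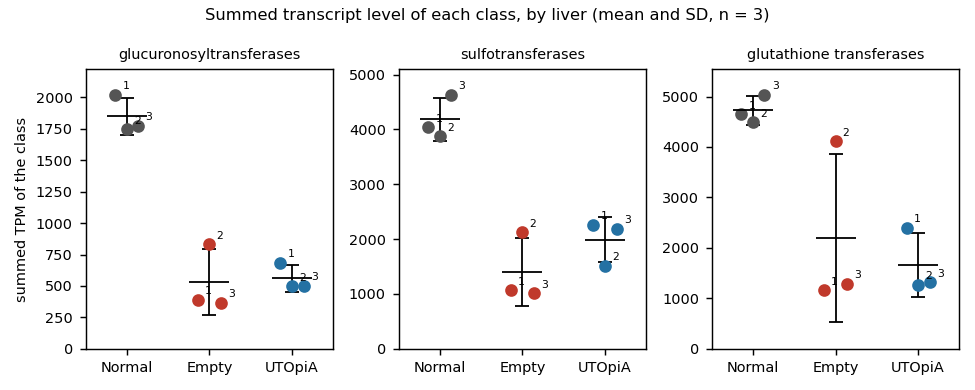
Summed TPM of each enzyme class (y axis) in the Normal, Empty and UTOpiA livers (x axis), with each liver as a numbered point and the mean and SD (n = 3) as bars. All 6 ACLF livers lie below the 3 Normal livers in each class, and Empty 2 is the highest Empty liver in each.

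Among the 12 sulfotransferases, 5 were called lower in Empty livers (Sult4a1, Sult1e1, Sult1c3, Sult2b1 and Sult1b1), Sult5a1 was called higher, 4 were not called and 2 were not tested. The call of Sult2b1 was kept in 13 of the 16 alternatives that tested it and lost without Normal 3, without Empty 1 and by limma on TPM with no filter. Sult1e1, the estrogen sulfotransferase, was the most abundant transcript of the class in Normal livers at 2518 ± 345 TPM, well above Sult1a1 at 579 ± 103, Sult1b1 at 469.9 ± 51.2 and Sult2a1 at 380.4 ± 69.5 TPM. The SDs of Sult1a1 and Sult1b1 overlapped. Sult1e1 stood at 2045, 2055 and 2624 CPM in Normal, 30.3, 266.5 and 36.5 CPM in Empty and 232, 45.5 and 463 CPM in UTOpiA livers. All ACLF livers were lower than all Normal livers, and within each ACLF group the livers spread widely, with Empty 2 high and UTOpiA 2 low. The log2 fold change was -4.33 ± 1.07 (adjusted p = 0.0101) in Empty and -3.18 ± 1.02 (adjusted p = 0.0357) in UTOpiA, where the call was kept in 12 of 19 alternatives and lost with no filter on counts, with the replicate block and without any 1 of the Normal livers, UTOpiA 1 or UTOpiA 2. The value in Empty was -6.07 (edgeR adjusted p = 0.00159) without Empty 2, and that in UTOpiA was -4.02 (edgeR adjusted p = 0.035) without UTOpiA 3. The weakest values over the alternatives were -3.89 in Empty and -2.69 in UTOpiA, with adjusted p up to 0.0325 and 0.0947.

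Sult2a1, which sulfates bile acids and hydroxysteroids, spread widely among the ACLF livers. Its CPM was 830.2, 930.4 and 1195 in Normal, 66.9, 501.5 and 75.8 in Empty and 845, 244.5 and 1197 in UTOpiA livers. Every Empty liver lay below every Normal liver, while UTOpiA 1 and 3 reached the Normal level. The log2 fold change was -2.20 ± 0.84 in Empty (adjusted p = 0.0571, not called) and -0.37 ± 0.81 in UTOpiA (adjusted p = 0.742, not called). The decrease in Empty was called in 6 of 19 alternatives: by DESeq2 with all livers (log2 fold change -2.19, DESeq2 adjusted p = 0.0333), in the 3 limma fits on TPM, without UTOpiA 2, and without Empty 2, at -3.79 (edgeR adjusted p = 0.00165). The row spans 527902 bases on chromosome 1, and RefSeq names its Entrez identifier Sult2a6, so reads of several closely related Sult2a genes may be joined in it.

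Sult1c3 had the smallest SE of the class in both comparisons with Normal. It stood at 189.6, 185 and 179.6 CPM in Normal, 73.1, 45.3 and 46.2 CPM in Empty and 107, 86.6 and 89.6 CPM in UTOpiA livers, with no overlap between any groups. Against Normal the log2 fold change was -1.75 ± 0.21 in Empty (adjusted p = 0.000245). It was -0.97 ± 0.20 in UTOpiA (adjusted p = 0.00522), just short of the fold of 2 needed for a call.

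Sult1a1, the phenol sulfotransferase, and Sult1b1, which sulfates thyroid hormones and phenols, had smaller fold changes. Sult1a1 stood at 596, 423 and 463 CPM in Normal, 429.7, 519 and 302 CPM in Empty and 612.5, 457 and 609 CPM in UTOpiA livers, groups that overlapped, with log2 fold changes of -0.25 ± 0.26 (adjusted p = 0.457) and 0.18 ± 0.26 (adjusted p = 0.611). The direction in Empty turned to 0.25 in TPM. Sult1b1 stood at 442, 359.8 and 453 CPM in Normal, 117, 277 and 141 CPM in Empty and 287, 188 and 312 CPM in UTOpiA livers. All its ACLF values were below the Normal values, and it was called in Empty (log2 fold change -1.23 ± 0.34, adjusted p = 0.0138) but not in UTOpiA (-0.67 ± 0.33, adjusted p = 0.136). The call in Empty was lost in 4 of 19 alternatives, the 3 limma fits on TPM and the fit without Empty 3.

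Sult4a1 and Sult5a1 moved between presence and near absence, in opposite directions. Sult4a1, best known from brain, was counted 404, 878 and 606 times in the Normal livers, 0, 5 and 0 times in the Empty livers and 0, 1 and 0 times in the UTOpiA livers. Over the summed counts it was 616-fold lower in Empty (5 counts in all; 95% exact interval 263.6 to 1900) and 2542-fold lower in UTOpiA (1 count in all; 455.8 to 100500), intervals that cover counting error only. It was called lower in both groups (edgeR adjusted p = 5.92e-05 and 7.81e-05). The level in Normal livers was 33.6 ± 12 TPM, with Normal 2 the highest of the 3.

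Sult5a1 was counted 1, 1 and 7 times in the Normal livers, 242, 110 and 269 times in the Empty livers and 168, 273 and 49 times in the UTOpiA livers. Over the summed counts it was 42.3-fold higher in Empty (95% exact interval 22.1 to 92.9) and 40.4-fold higher in UTOpiA (21.1 to 88.9) than in Normal, where 9 counts were found in all, 7 of them in Normal 3. It was called higher in both (adjusted p = 0.000723 and 0.00119). Over the alternatives its log2 fold change ran from 3.83 to 6.83 in Empty and from 3.42 to 6.69 in UTOpiA, so the size of the fold is uncertain. Its level stayed low beside the abundant sulfotransferases, at 18.2 ± 7.27 TPM in Empty livers.

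Sult1e1 supplied 60% ± 3.12 of the summed sulfotransferase TPM in Normal livers, 10.2% ± 8.53 in Empty and 14.6% ± 9.42 in UTOpiA livers. Sult1a1 was the largest share in ACLF, at 52.5% ± 11.6 in Empty and 42.1% ± 10.2 in UTOpiA livers against 13.9% ± 2.94 in Normal. The class summed to 4185 ± 396 TPM in Normal, 1405 ± 624 TPM in Empty and 1990 ± 415 TPM in UTOpiA livers, 0.336 and 0.475 times the Normal mean. On summed CPM the ratios were 0.233 and 0.449.

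Of the 22 glutathione transferases, 17 were tested. In Empty livers 8 were called lower (Gsta1, Gsta2, Gsta3, Gsta5, Gstm7, Gstt1, Gstt2 and Gstk1), 2 higher (Gstp1 and Gstm3l) and 7 were not called. In UTOpiA 6 were called lower, all of them among the 8, and the same 2 higher. Of the 6 alpha class members 4 were called lower in both groups, with a median log2 fold change of -3.06 in Empty and -3.63 in UTOpiA, while the 5 tested mu members had medians of -0.89 in both groups.

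Gsta5, an alpha class enzyme known for detoxifying aflatoxin epoxide, ranked after Gstm1 in level in Normal livers, at 966 ± 106 TPM. It stood at 788, 638 and 668 CPM in Normal, 6.59, 91.1 and 10.4 CPM in Empty and 48.3, 3.99 and 23.5 CPM in UTOpiA livers. This gave a log2 fold change of -4.28 ± 1.17 in Empty (adjusted p = 0.0156) and -4.79 ± 1.20 in UTOpiA (adjusted p = 0.0135). The call in Empty was lost without a filter on counts (edgeR adjusted p = 0.0506), and DESeq2 gave Gsta5 no adjusted p. The 6 ACLF livers were all far below Normal, and Empty 2 held most of what was left in its group. The value in Empty was -6.36 (edgeR adjusted p = 0.00188) without Empty 2, and that in UTOpiA was -5.69 (edgeR adjusted p = 0.0218) without UTOpiA 1. The weakest values over the alternatives were -3.79 in Empty and -4.28 in UTOpiA.

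Gsta2 and Gsta3 came close to loss in several ACLF livers. Gsta2 stood at 106, 97.6 and 92.8 CPM in Normal, 5.65, 8.63 and 1.25 CPM in Empty and 4.42, 5.05 and 1.73 CPM in UTOpiA livers, with log2 fold changes of -4.26 ± 0.62 (adjusted p = 0.000896) and -4.70 ± 0.64 (adjusted p = 0.000952). Gsta3 stood at 120.3, 133.5 and 117 CPM in Normal, 2.38, 15.4 and 6.58 CPM in Empty and 5.46, 2.17 and 1.35 CPM in UTOpiA livers, with log2 fold changes of -3.93 ± 0.67 (adjusted p = 0.0018) and -5.36 ± 0.73 (adjusted p = 0.000946). Gsta3 lies on chromosome 9 inside the span of Gsta1 on the opposite strand, and whether strand was used in counting is not given in the sources used here, so the separation of these members is uncertain. Gsta1 fell less, from 582, 662.5 and 1033 CPM in Normal to 99.2, 311 and 91.5 CPM in Empty and 196, 59.9 and 132.5 CPM in UTOpiA livers, with log2 fold changes of -2.18 ± 0.58 (adjusted p = 0.0131) and -2.55 ± 0.59 (adjusted p = 0.0091). Leaving out Empty 2 gave -3.00 (edgeR adjusted p = 0.00156) for Gsta1, -4.85 (edgeR adjusted p = 0.000799) for Gsta2 and -4.78 (edgeR adjusted p = 0.000678) for Gsta3 in Empty. Leaving out UTOpiA 1 gave -6.11 (edgeR adjusted p = 0.00197) for Gsta3 in UTOpiA. The weakest values over the alternatives in Empty were -1.85 for Gsta1, -3.79 for Gsta2 and -3.50 for Gsta3. For Gsta1 in Empty the adjusted p reached 0.0447, and for Gsta3 in UTOpiA the weakest value was -4.89.

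Gstm1, a broad mu class enzyme, was the most abundant glutathione transferase in Normal livers at 1316 ± 120.4 TPM and was not called. Its CPM was 1074, 903 and 1101 in Normal, 222, 1112 and 189.6 in Empty and 579, 294 and 388 in UTOpiA livers. Of the 6 ACLF livers only Empty 2 reached the Normal level, and the other 5 lay below all Normal livers. The log2 fold change was -1.01 ± 0.63 (adjusted p = 0.208) in Empty and -1.29 ± 0.63 (adjusted p = 0.134) in UTOpiA. Without Empty 2 it was called lower in Empty, at -2.32 (edgeR adjusted p = 0.000507).

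Gstp1, the pi class enzyme that normal hepatocytes scarcely express and bile duct cells do, rose in both ACLF groups. It stood at 8.05, 6.06 and 7.05 CPM in Normal, 49.8, 20.3 and 81.7 CPM in Empty and 19.9, 25.7 and 15 CPM in UTOpiA livers. All ACLF livers exceeded all Normal livers, by a log2 fold change of 2.84 ± 0.46 in Empty (adjusted p = 0.00131) and 1.52 ± 0.45 in UTOpiA (adjusted p = 0.0254). The UTOpiA call was kept in 14 of 19 alternatives and lost without any 1 of the Normal livers, UTOpiA 1 or UTOpiA 2. Beside it, the summed cholangiocyte markers were 379, 522 and 810 TPM in Empty 1 to 3 and 224, 534 and 153 TPM in UTOpiA 1 to 3, and the summed neutrophil markers were 537, 188 and 1108 TPM and 387, 507.5 and 175 TPM. In both groups the livers had the same order for Gstp1 as for the neutrophil sum, as they did in Empty for the T and NK cell sum and in UTOpiA for the cholangiocyte, macrophage and fibroblast and stellate cell sums. Every other marker sum had a different order. These include the cholangiocyte, macrophage and fibroblast and stellate cell sums in Empty and the T and NK cell sum in UTOpiA. With 3 livers a group and several lists compared, orders can easily match by chance. The part of these cells in the Gstp1 result was not tested.

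Gstm3l rose from near absence. Its counts were 15, 9 and 5 in the Normal livers, 186, 2064 and 192 in the Empty livers and 576, 336 and 274 in the UTOpiA livers. Fitted log2 fold changes were 5.72 ± 1.20 (adjusted p = 0.00467) in Empty and 4.93 ± 1.18 (adjusted p = 0.0112) in UTOpiA. Empty 2 alone held most of the Empty counts, and without it the change in Empty was 3.53 (edgeR adjusted p = 0.000447). RefSeq gives the symbol Gstm3 to the Entrez identifier of this row, and the row lies wholly within the span of Gstm7 on the same strand of chromosome 2, so its counts depend on how reads of the neighbouring mu genes were assigned. Gstm7 moved the other way, with log2 fold changes of -2.55 ± 0.55 (adjusted p = 0.00494) and -2.69 ± 0.55 (adjusted p = 0.00541). Its CPM was 649.8, 615.8 and 636.6 in Normal, 68.7, 209 and 47.3 in Empty and 140.4, 59.2 and 96.1 in UTOpiA livers, with Empty 2 again the highest Empty liver.

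Of the remaining tested members, the theta members Gstt1 and Gstt2 were called lower in Empty at -1.77 and -1.18, and the kappa member Gstk1, a mitochondrial and peroxisomal enzyme, at -1.35 (adjusted p = 0.0473). The call of Gstk1 was not stable: it was kept in 5 of 19 alternatives and lost in 14, among them those without any 1 of the Normal livers, Empty 1, Empty 3, UTOpiA 1 or UTOpiA 3. That of Gstt2 was lost in the 3 limma fits on TPM. Gstm4 and the omega member Gsto1 had an adjusted p under the threshold in Empty but changes smaller than a fold of 2, at -0.89 and -0.67. Gsta4, which conjugates the lipid peroxidation product 4-hydroxynonenal, Gstt3, Gstm5 and Gsta6 did not pass the test, with values of -1.42, -1.35, -0.49 and -0.15. DESeq2 with all livers called Gsta4 (DESeq2 adjusted p = 0.0305) and Gstt3 (DESeq2 adjusted p = 0.0415) lower in Empty, in a fit that called 10.1% of all genes lower and 19.6% higher. Without Empty 2, edgeR called 11 members of the class lower in Empty, Gsta4 and Gstm4 among them. Over all genes that fit called 1776 lower and 2930 higher. The class summed to 4724 ± 280.3 TPM in Normal, 2188 ± 1667 TPM in Empty and 1660 ± 638 TPM in UTOpiA livers, 0.463 and 0.351 times the Normal mean. On summed CPM the ratios were 0.306 and 0.273. Without Empty 2 the Empty ratio in TPM was 0.26.

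**Figure D3:**
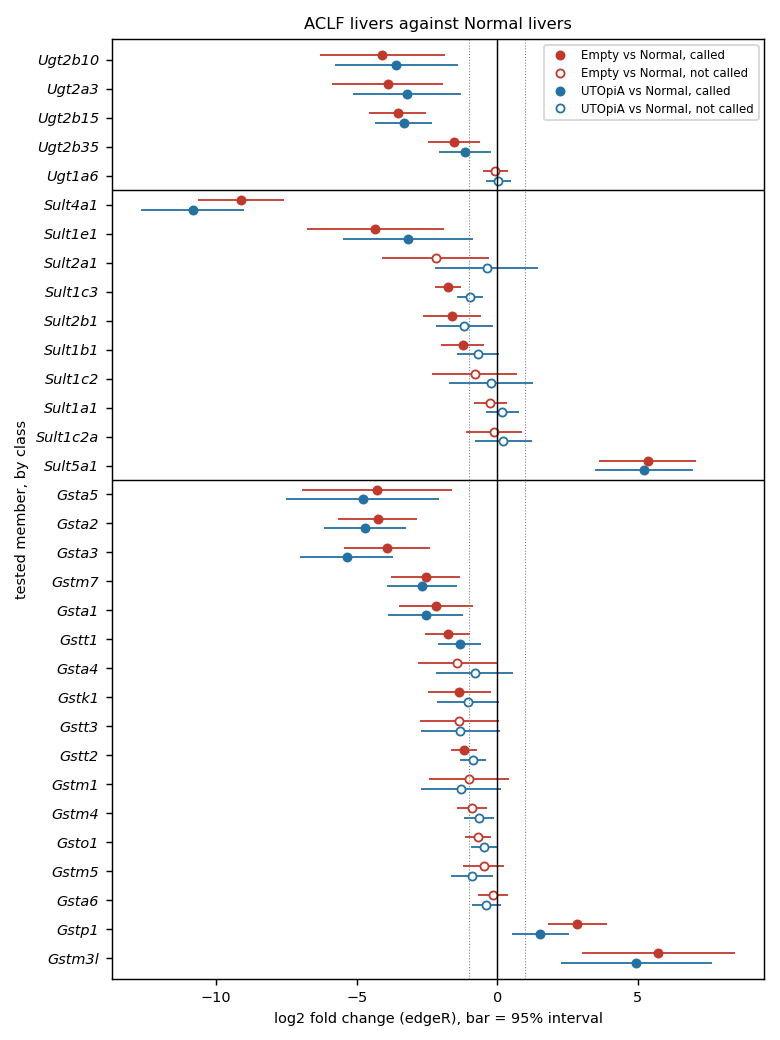
Log2 fold change (x axis) of the 32 tested enzymes (y axis, by class) in Empty (red) and UTOpiA (blue) against Normal livers, with 95% intervals as bars, filled points for called genes and dotted lines at a fold of 2. Sult5a1, Gstp1 and Gstm3l lie to the right in both comparisons, and the value of Sult4a1, which is near 0 counts in ACLF livers, depends on the prior count of the fit.

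Promoter sequence was available from RefSeq (build GRCr8) for 34 of the 39 genes, matched by Entrez identifier, and covers 250 bases before to 50 bases after the start of transcription. Genes of glutathione transferases are textbook targets of NRF2, which binds the antioxidant response element, and of the aryl hydrocarbon receptor, which binds the xenobiotic response element. The antioxidant core TGACNNNGC, searched on both strands, was found in 7 of 34 members (20.6%) and in 12.1% of all 33469 promoters, and the 7 include Gstm3 and Gstm5, which share an identifier and a promoter. Members are counted by gene, with a match in any promoter, and the background by promoter. Gsta3 has 2 promoters, 1 of them with a match, so the shares are not strictly alike. The xenobiotic core TNGCGTG was found in 2 of 34 (Gsta2 and Gsta6), against 4.89% of all promoters. The first 9 letters of the HNF1 motif, GTTAATNAT, were found in 1 (Sult2a1), against 0.747% of all.

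Promoters with a match are shown for a member that rose, Gstp1, and for a pair that fell, Gsta2 and Gstm7, to set the letters beside opposite changes. Each lies on the minus strand and reads 5′ to 3′ along the gene, and capitals mark the matches. In Gstp1 (chr1:210769656-210769955) the match begins 61 bases before the start and also spells TGACTCA, the AP-1 motif. In Gstm7 (chr2:198260270-198260569) it begins 14 bases before the start. In Gsta2 (chr8:88077043-88077342) the xenobiotic core begins 26 bases before the start and an antioxidant core on the opposite strand begins 36 bases after it.
Gstp1: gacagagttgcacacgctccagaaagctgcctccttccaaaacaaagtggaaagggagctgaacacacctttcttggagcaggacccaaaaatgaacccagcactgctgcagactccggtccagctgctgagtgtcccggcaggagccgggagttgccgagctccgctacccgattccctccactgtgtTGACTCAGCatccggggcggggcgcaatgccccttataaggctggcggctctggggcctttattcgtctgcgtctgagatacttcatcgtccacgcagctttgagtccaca
Gsta2: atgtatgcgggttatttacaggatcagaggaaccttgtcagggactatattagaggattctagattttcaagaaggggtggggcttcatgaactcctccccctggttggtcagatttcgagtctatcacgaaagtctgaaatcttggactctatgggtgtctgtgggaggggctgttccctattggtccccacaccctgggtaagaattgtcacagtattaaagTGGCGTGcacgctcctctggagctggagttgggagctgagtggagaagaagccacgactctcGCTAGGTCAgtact
Gstm7: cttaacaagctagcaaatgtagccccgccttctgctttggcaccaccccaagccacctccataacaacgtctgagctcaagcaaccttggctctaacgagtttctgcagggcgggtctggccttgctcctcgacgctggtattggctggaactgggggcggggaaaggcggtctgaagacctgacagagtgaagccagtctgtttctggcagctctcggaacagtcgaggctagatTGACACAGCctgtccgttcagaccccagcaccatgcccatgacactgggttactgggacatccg
A match is a description of letters. Of the 3 members called higher, Gstp1 held a match to these motifs, and Sult5a1 and Gstm3l held none.

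The UTOpiA and Empty groups differ by the content of the circuit, and also by survival. The study reports very high early mortality in the Empty group and the highest survival in the UTOpiA group. The Empty livers may therefore come from a more selected set of survivors, and the part of this selection in the comparison was not tested. No conjugation enzyme was called between UTOpiA and Empty livers. Of 32 members, 0 were called higher and 0 lower by edgeR, and 0 by DESeq2 with all 9 livers. Over all genes edgeR also called 0% higher and 0% lower, with 1456 of 14089 at an unadjusted p under 0.05, and DESeq2 called 0.352% higher and 0.511% lower. Of the 32 members 2 had an unadjusted p under 0.05, Sult1c3 and Gstp1. The median log2 fold change of UTOpiA against Empty was 0.38 for glucuronosyltransferases, 0.49 for sulfotransferases and -0.24 for glutathione transferases, against 0.0012 for all genes. Only Sult1c3 had all 3 UTOpiA livers above all 3 Empty livers and no member had all below, while over all genes 6.15% were above and 5.97% below without overlap.

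In UTOpiA against Empty, Sult1c3 had a log2 fold change of 0.78 (95% interval 0.33 to 1.24; edgeR adjusted p = 0.316). Gstp1 had a value of -1.32 (-2.29 to -0.35; edgeR adjusted p = 0.395), with UTOpiA 2 above Empty 2. Sult2a1 differed by 1.83 (-0.06 to 3.71; edgeR adjusted p = 0.496) and Gsta3 by -1.43 (-2.93 to 0.07; adjusted p = 0.501). For Sult1e1 the difference was 1.15 with an interval of -1.01 to 3.31, and for Ugt2a3 and Ugt2b35, the glucuronosyltransferases with the smallest p, it was 0.68 (-1.13 to 2.48) and 0.38 (-0.53 to 1.29). Intervals this wide leave changes of more than a fold of 2 in either direction undetectable for many members.

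**Figure D4:**
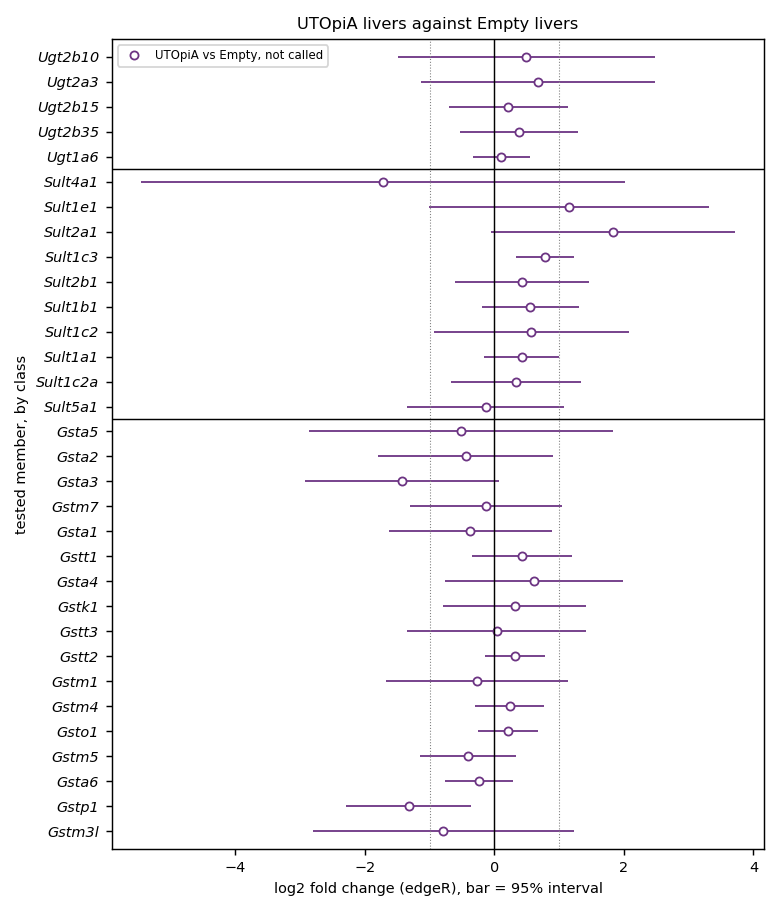
Log2 fold change (x axis) of UTOpiA against Empty livers for the 32 tested enzymes (y axis, by class), with 95% intervals as bars and open points since no gene was called. The intervals of Sult1c3 and Gstp1 alone do not cross 0.

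Single livers of both groups weighed heavily on this comparison. Empty 2 was the highest Empty liver for 25 of the 32 members (78.1%), against 39.7% of all genes, and this held in 4 of 5 glucuronosyltransferases, 8 of 10 sulfotransferases and 13 of 17 glutathione transferases. UTOpiA 2 was the lowest UTOpiA liver for 25 of 32 members (78.1%), against 36.3% of all genes. UTOpiA 1 was the highest for 18 of 32 (56.25%), against 27.9% of all genes. The hepatocyte markers summed to 80890 TPM in Empty 2 against 44280 and 43090 TPM in Empty 1 and 3, and to 50190 TPM in UTOpiA 2 against 77700 and 69420 TPM in UTOpiA 1 and 3. The part of hepatocyte content in these orders was not tested.

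With Empty 2 left out, DESeq2 called 9 of 33 members higher in UTOpiA: Ugt2a3, Ugt2b10, Ugt2b35, Sult1e1, Sult2a1, Gsta4, Gstk1, Gstm1 and Gstm3l. Over all genes 2.51% were called higher in that fit, and 0.994% lower. The values ran from a log2 fold change of 1.00 for Gstm1 (DESeq2 adjusted p = 0.0119) to 3.38 for Sult2a1 (DESeq2 adjusted p = 4.31e-09). With the same liver left out, edgeR called 0 of 32 members higher (0.181% of all genes) and Gstp1 lower (0.153% of all genes), at a log2 fold change of -1.70 (edgeR adjusted p = 0.0455), and DESeq2 also called Gstp1 lower. Without Empty 1, DESeq2 called Sult1c3 higher (0.542% of all genes) and Gsta3 lower (0.754% of all genes). Without UTOpiA 2 it called Gstp1 lower and no member higher, while over all genes 1.69% were called higher and 2.58% lower. The differences between UTOpiA and Empty livers therefore depend on which library is included and on the tool.

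The class sums also depended on single livers. The sulfotransferases summed to 1071, 2124 and 1018 TPM in Empty 1 to 3 and to 2265, 1512 and 2193 TPM in UTOpiA 1 to 3, a ratio of group means of 1.42 that ran from 1.25 to 1.91 with each liver left out in turn. The glutathione transferases summed to 1160, 4111 and 1293 TPM in Empty and to 2397, 1270 and 1314 TPM in UTOpiA livers. Their ratio was 0.759 with all livers and 1.35 without Empty 2, so its direction rests on Empty 2. The glucuronosyltransferase ratio was 1.06 and ran from 0.92 to 1.49. It was 0.938 without Empty 1, 0.92 without Empty 3, 0.947 without UTOpiA 1 and 1.49 without Empty 2. On summed CPM the ratios with all livers were 1.93 for the sulfotransferases, 0.892 for the glutathione transferases and 1.17 for the glucuronosyltransferases.

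Lists of genes around these reactions were small, and their counts stand against 11.1% of all genes called lower and 20.7% called higher in Empty, and 6.81% and 18.2% in UTOpiA. Among 5 genes of UDP-glucuronic acid supply and deconjugation, Ugdh, which oxidises UDP-glucose to the donor, and Ugp2, which makes UDP-glucose, were called lower in Empty at log2 fold changes of -1.29 and -1.24, 3 were not called, and 1, Ugdh, was called lower in UTOpiA (-1.30). Among 8 tested genes of sulfate activation and transport, the PAPS synthases moved in opposite directions in Empty, Papss1 at 1.60 and Papss2 at -1.14, and the sulfate transporter Slc26a1 was called lower at -2.14. In UTOpiA Papss1 was again called higher, and Slc26a1 and Bpnt1, which degrades the spent donor, were called lower.

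Among 10 tested genes of glutathione synthesis and recycling, 2 were called lower and 1 higher in Empty, numbers close to the shares over all genes. Gclc, the catalytic subunit of the rate-limiting ligase of glutathione synthesis, stood at a mean of 296 ± 35.7 CPM in Normal, 47.3 ± 24.6 in Empty and 41.6 ± 6.04 in UTOpiA livers (SD, n = 3), with log2 fold changes of -2.65 and -2.83 (adjusted p = 0.000319 and 0.000365). Cbs, which feeds cysteine synthesis, was called lower in Empty at -1.88 and not in UTOpiA at -0.66. Ggt1, the gamma-glutamyltransferase that cleaves glutathione outside the cell, rose by a log2 fold change of 5.63 in Empty and 4.71 in UTOpiA. It had 7, 12 and 7 counts in the Normal livers, 555, 637 and 951 in the Empty livers and 253, 536 and 183 in the UTOpiA livers. Ggt1 passed the filter on low counts through the ACLF livers, so the size of its fold is uncertain. Of 7 glutathione transferases whose symbols fall outside the chosen families, the microsomal Mgst1, Mgst2 and Mgst3 and the maleylacetoacetate isomerase Gstz1 were called lower in Empty, with Gstz1 the most at -2.84, and Ltc4s, leukotriene C4 synthase, was called higher at 2.25 but not in UTOpiA (1.87, adjusted p = 0.0834). Ltc4s had 9, 4 and 1 counts in the Normal livers and 14, 37 and 62 in the Empty livers, and passed the filter on low counts through the ACLF livers. None of the genes of these lists was called between UTOpiA and Empty livers.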

How the data were processed

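Bulk RNA-seq of 9 livers was analysed, 3 per group. The authors deposited whole-number read counts per gene without normalisation, and TPM, which are scaled by gene length. The submitters' processing notes name Trimmomatic, HISAT2, featureCounts and the rat build rn6, while the study's methods name Cutadapt and a mouse build, so positions are given as deposited, and how strand was set in the counting is not given in the sources used here. The genes were taken by symbol and protein-coding biotype from the deposited tables, and 0 columns of values were left unmapped.

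Counts were tested with edgeR 4.0.16 in R 4.3.3 (filterByExpr on the 3 groups, TMM, robust quasi-likelihood test, two-sided, 1 fit of all 9 libraries). Calls needed a Benjamini-Hochberg adjusted p under 0.05 over the 14089 genes tested and a fold change above 2. Genes described in full were, per class, the 3 of highest mean TPM in Normal livers, up to 3 called with the largest fold in each direction in Empty against Normal (mean of at least 1 CPM, no overlap), the 2 of smallest p in UTOpiA against Empty, and Ugt1a6, Sult1a1, Sult1e1, Sult2a1, Gsta1, Gstm1 and Gstp1. Gstm7 and the genes called only with a library left out were named after their values were seen. The members, the lists and the tests were chosen with earlier results of these data known. A gene of the lists and a detail of the cells in the circuit are not reported here. Totals of 14241172 to 17321677 counts per library set the counting error, and intervals on summed counts cover that error only. Alternatives were DESeq2 1.42.0, median-of-ratios scaling, no count filter, a minimum of 10 counts per library, calls without a fold threshold, the 6 libraries of the compared groups, a replicate block, limma 3.58.1 on log2(TPM + 1) or log2(TPM + 0.1), and each library left out. The edgeR, DESeq2 and limma steps were tested on simulated data. Of genes changed 4-fold against Normal in both ACLF groups, edgeR recovered 74.6% in Empty and 72.5% in UTOpiA. DESeq2 recovered 82.5% and 83%, and limma 81.7% and 84.4%. Between UTOpiA and Empty, where no change was set, DESeq2 made 10 false calls and edgeR and limma made 0.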

Additional observations from a re-analysis of the deposited data

How the results depend on the processing

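Of 441 recomputed counts and class sums, 410 stayed within 1.5 times the reported count or within 1 SD of the reported sum, and 31 moved. Many reported counts were 0, among them all for UTOpiA against Empty, and stayed by remaining 0. The UTOpiA to Empty ratio of summed glutathione transferases counted as staying although it turned from 0.759 to 1.35 without Empty 2. The number that stayed is therefore no measure of how stable the calls were. With at least 10 counts in every library the called sulfotransferases numbered 0 higher and 3 lower in Empty and 0 higher and 1 lower in UTOpiA, and 1 glutathione transferase was higher in each, because Sult2b1, Sult4a1, Sult5a1 and Gstm3l did not pass that filter. Without a filter, UTOpiA had 2 glucuronosyltransferases and 1 sulfotransferase lower (the cause was not tested). DESeq2 called 1 glutathione transferase higher in each group, having given no adjusted p to Gstm3l, Ugt2b10 and Gsta5, and 9 lower in place of 8 in Empty. The summed CPM of glucuronosyltransferases gave 0.222 in place of 0.304 in UTOpiA against Normal. With each library left out, UTOpiA against Normal had 1 to 4 glucuronosyltransferases lower (1 without UTOpiA 2), 1 to 2 sulfotransferases lower and 1 to 2 glutathione transferases higher. UTOpiA against Empty then had 0 to 3, 0 to 2 and 0 to 4 higher in the 3 classes and 0 to 1 glutathione transferase lower, and the highest counts came from DESeq2 without Empty 2.

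The values of Ugt1a6 in Empty turned to 0.028 with 10 counts in every library, 0.44 by limma on TPM with either pseudocount or no filter and 0.0037 without Empty 3 (range -0.13 to 0.0037 with each liver left out). In UTOpiA those of Ugt1a6 turned to -0.00024 without Normal 3, -0.010 without UTOpiA 1 and -0.041 without UTOpiA 2 (range -0.041 to 0.13). Sult1a1 in Empty turned to 0.25 by limma on TPM, with and without the filter and with either pseudocount, and Sult2a1 in UTOpiA to 0.052 without UTOpiA 2 (range -0.86 to 0.052).

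With the replicate number as a block, UTOpiA against Normal had 1 sulfotransferase lower in place of 2, and no other class count moved past 1.5 times. Same-numbered livers correlated at -0.183 to 0.064 in their deviations, so the numbers do not pair the samples. With 3 livers a group and adjusted p-values near the threshold, differences smaller than the spread between livers were not detectable, above all between the ACLF groups.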

Other observations

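Over all genes 11.1% were called lower and 20.7% higher in Empty against Normal livers, and 6.81% and 18.2% in UTOpiA. Of 10 other enzymes of drug and bile acid metabolism tested, 4 were called lower and 1 higher in Empty. They include the epoxide hydrolases Ephx1 and Ephx2 and the quinone reductase Nqo1, which do not conjugate and were not called. Baat, which couples bile acids to amino acids, had a log2 fold change of -1.88 ± 0.31 (SE, n = 3 per group; edgeR adjusted p = 0.00127), Glyat, which couples acyl groups to glycine, had -3.01, and Inmt and Nat1 had -4.12 and -1.20. Nnmt, which methylates nicotinamide, was called higher at 1.27. In UTOpiA against Normal livers Inmt was called lower (-4.76), while Baat stood at -0.63 (edgeR adjusted p = 0.131) and Glyat at -1.68 (edgeR adjusted p = 0.193).

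Against the same shares over all genes, 3 of 7 tested exporters of conjugates were called higher and 1 lower in Empty. Abcc1, Abcc3 and Abcc5, exporters found outside the canalicular membrane, were called higher in Empty at 2.40, 1.69 and 2.34, and Abcc6 was called lower at -1.53. In UTOpiA the same 3 were called higher, at 1.69, 2.12 and 2.20, and Abcc4 and Abcg2 were called lower, at -1.35 and -2.45, while Abcc6 stood at -0.87 and was not called. Abcc2, the canalicular exporter, stood at -2.34 and did not pass the test (edgeR adjusted p = 0.105). Of 13 transcription regulators of phase II genes, 6 were called lower in Empty and 0 higher: Cebpa (-1.69), Foxa2 (-1.59), Nr1h4 (-1.55), Rxra (-1.49), Hnf4a (-1.22) and Ppara (-1.02). In UTOpiA Nr1h4 and Ppara were called lower (-1.03 and -1.29). Nfe2l2, which encodes NRF2, stood at -0.19 in Empty (edgeR adjusted p = 0.491), and no gene of these lists was called between UTOpiA and Empty livers.

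In Empty against Normal livers, where 20.7% of all genes were called higher and 11.1% lower, endothelial markers were called higher in 1 of 6 tested and lower in 1, near those shares, T and NK cell markers were called higher in 4 of 6, erythroid markers in 4 of 5 with 1 lower, proliferation genes in 4 of 5, and B and plasma cell markers in 0 of 3 tested.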
